A study of Mus musculus with 3 samples.

Results

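Integrins are paired alpha and beta receptors that hold cells to the matrix around them, and laminins are trimers of an alpha, a beta and a gamma chain that form the core of basement membranes. The integrin and laminin genes were taken as all probe sets whose single gene symbol belongs to an integrin alpha or beta subunit, to Itgbl1 or to a laminin chain. This gave 38 probe sets for 37 genes, of 28943 probe sets and 19938 genes measured. They comprised 18 integrin alpha genes, 8 integrin beta genes, the integrin-like gene Itgbl1 and 10 laminin chain genes, with 5 alpha, 3 beta and 2 gamma chains.

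Total RNA of 3 mouse samples was hybridised to single-colour Affymetrix arrays, with 1 array for each group. The DiBA sample is labelled with that name only, under a series title on directly converted brown adipocytes. The BA sample has brown adipose tissue as its source, while its description names cultured cells, so the labels leave unsettled which of these it was. The fibroblast sample is labelled as cultured mouse fibroblasts. All growth notes give culture at 37 °C with 5% CO2. The sources used here do not give strain, age, sex, passage or the agents of conversion. With 1 array per group there is no spread between replicates and no p-value, and every difference below describes these arrays alone. The number of arrays limits the precision.

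Fat cells in tissue are wrapped in a basement membrane that contains laminins, whereas fibroblasts on plastic attach mainly through fibronectin and vitronectin receptors. Subunits are not interchangeable: the alpha subunit largely sets which matrix protein is bound, and Itgb1 encodes the beta partner of most of them. Laminin chains are held together as trimers before secretion, and the gamma chain of Lamc1 is part of most of them.

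A gene was counted as higher or lower where log2(intensity + 1) differed by at least 2-fold and at least 1 of both arrays read 69.2 or more, which is the median intensity when the probe sets of the 3 arrays are pooled. Median intensities of all probe sets were 71.5 for DiBA, 67.7 for BA and 67.8 for fibroblasts. All 6 brown adipocyte markers checked were at least 2-fold higher in DiBA and in BA than in fibroblasts, with summed intensities of 24091 in DiBA, 25755 in BA and 194 in fibroblasts. With low intensities raised to 69.2, 5 of the 6 remained so, as Elovl3 came to a fold of 1.11 in DiBA and 1.43 in BA. Of 7 fibroblast markers measured, 4 were at least 2-fold lower in DiBA and 5 in BA than in fibroblasts, while Dcn, which encodes the proteoglycan decorin, was higher in both. Markers of some other cell types were also brighter in both than in fibroblasts. For others the summed intensity was lower, though single markers varied. All 10 skeletal muscle markers were at least 2-fold higher, with sums of 14328 in DiBA, 16283 in BA and 1201 in fibroblasts. Of 9 endothelial markers, 8 in DiBA and 9 in BA were higher, with sums of 3219 in DiBA, 3844 in BA and 594 in fibroblasts. Of 10 macrophage markers, 10 in DiBA and 9 in BA were higher, with sums of 4897 in DiBA, 4834 in BA and 1350 in fibroblasts. With low intensities raised to 69.2, the DiBA counts are 7 for endothelial and 9 for macrophage markers. Of 6 pericyte and smooth muscle markers, 3 were lower (Acta2, Pdgfrb and Myh11) and 2 higher (Rgs5 and Kcnj8) in each sample. Their sums were 2793 in DiBA, 2987 in BA and 10304 in fibroblasts, of which Acta2 gave 531, 457 and 6596. Rgs5 had 750 in DiBA and 865 in BA, against 57.3 in fibroblasts. Kcnj8 had 418 in DiBA and 562 in BA, against 136 in fibroblasts. Sums of 4 Schwann cell markers were 2382 in DiBA, 2559 in BA and 4147 in fibroblasts. None of the 4 was 2-fold apart from fibroblasts in either sample. Pmp22 made up most of these sums, with 2089 in DiBA, 2246 in BA and 3921 in fibroblasts. Mbp lay the other way, with 159 in DiBA, 178 in BA and 89 in fibroblasts. Sums of 6 epithelial markers were 261 in DiBA, 285.5 in BA and 389 in fibroblasts, with 6, 5 and 4 of them under 69.2. Krt8 alone was at least 2-fold lower, in DiBA only. Fewer cells of a type and less RNA per cell cannot be told apart in such bulk RNA, and the part of these cell types in the values below was not tested.

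Itga5, Itga8, Itga11 and Itgav, which encode receptor subunits for fibronectin, other RGD proteins and fibrillar collagen, were the members farthest below fibroblasts in both DiBA and BA. Of the 37 genes, 7 were at least 2-fold lower and 1 was higher in DiBA than in fibroblasts, which is 18.9% and 2.70% of them. Over all genes measured, 7.67% were lower and 8.54% higher in that comparison. In BA, 11 of the 37 were lower and 1 was higher than in fibroblasts, which is 29.7% and 2.70%, against 9.59% lower and 9.51% higher over all genes. Both comparisons use the same fibroblast array. The same all-gene shares are the background for each smaller group and list below, where a few genes make a large share. Of the 26 members whose mean level over the 3 arrays reached the threshold, 26.9% were lower and 3.85% higher in DiBA, and 42.3% lower and 3.85% higher in BA, than in fibroblasts. Among the 11094 genes whose mean level over the 3 arrays reached the threshold, 12.1% were lower and 14.8% higher in DiBA, and 15.1% lower and 16.4% higher in BA, than in fibroblasts. The median log2 difference of the 37 genes was -0.16 for DiBA and -0.24 for BA against fibroblasts, where the median of all genes was 0 in both. Exact ties with fibroblasts made up 37.0% of all genes for DiBA and 34.5% for BA, against 10.8% and 8.11% of the 37. Among the 11094 genes the median was also 0, with ties at 14.7% for DiBA and 13.5% for BA.

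**Figure D1:**
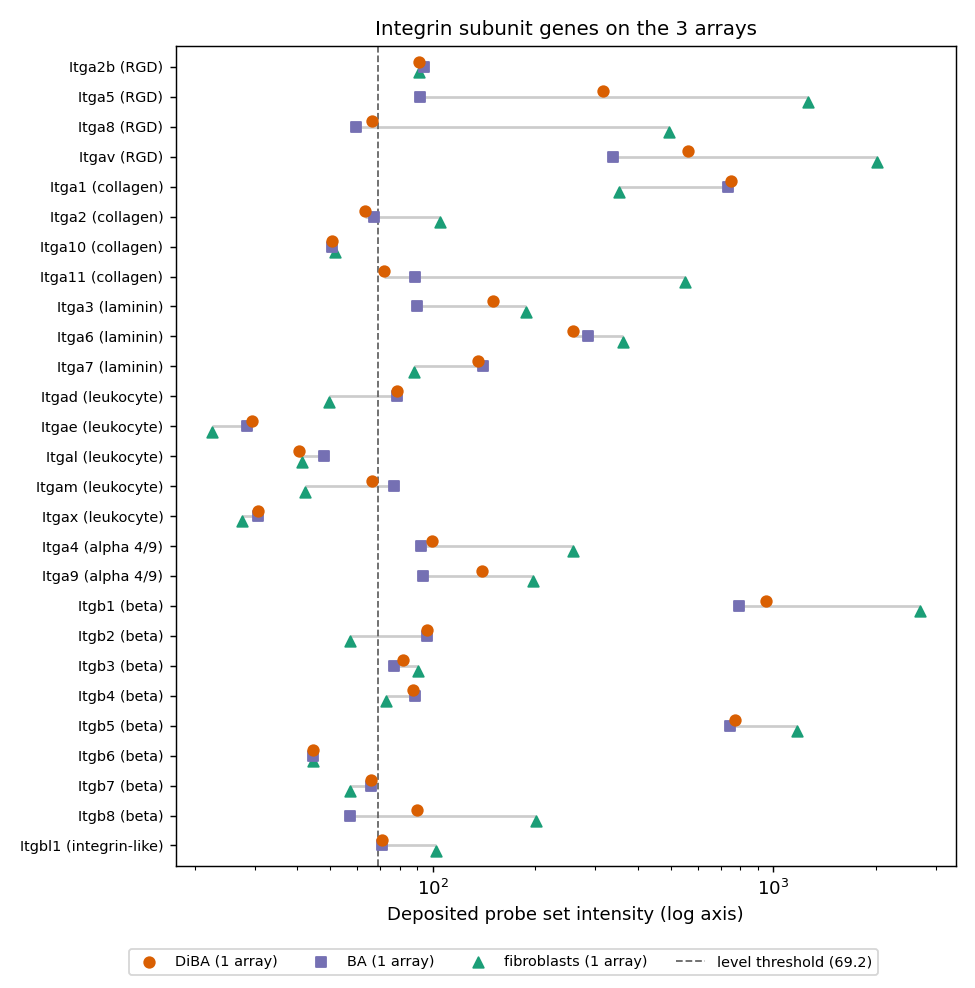
Deposited intensity (log axis) of each integrin gene on the DiBA, BA and fibroblast arrays, grouped by what the subunit binds, with the level threshold of 69.2 as a dashed line. The fibroblast triangles of Itga5, Itga8, Itga11, Itgav and Itgb1 stand far to the right of both other symbols, while Itga1 shows the opposite order.

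Among alpha subunits that bind the RGD tripeptide of matrix proteins, 3 of 4 were lower in both DiBA and BA. Itga5, the alpha subunit of the main fibronectin receptor, had an intensity of 316 in DiBA and 91.4 in BA, against 1263 in fibroblasts. It was thus 3.99-fold lower in DiBA and 13.7-fold lower in BA than in fibroblasts, and read 3.43-fold higher in DiBA than in BA. Itgav, which pairs with several beta subunits to bind vitronectin and fibronectin, had 560 in DiBA and 337 in BA, against 2020 in fibroblasts. Its differences from fibroblasts were -1.85 for DiBA and -2.58 for BA on the log2 scale. Itga8, a receptor subunit for nephronectin and fibronectin, had 66.3 in DiBA and 59.5 in BA, against 493 in fibroblasts. The DiBA and BA values of Itga8 lay under the threshold, so its 7.33-fold and 8.16-fold lower values are imprecise, and each becomes 7.04-fold when low intensities are raised to 69.2. Itga2b, the platelet subunit, was nearly level, at 91.1 in DiBA, 93.9 in BA and 91.1 in fibroblasts. Sums of 4 platelet and megakaryocyte markers were 495 in DiBA, 639 in BA and 258 in fibroblasts. Of these markers, Pf4 and Ppbp were brighter in both samples, and Gp9 and Gp5 stayed under 69.2 on every array.

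Among the 4 collagen-binding subunits, 1 was lower and 1 higher in both DiBA and BA. Itga11, the receptor subunit for fibrillar collagen on mesenchymal cells, had 71.9 in DiBA and 88.4 in BA, against 550 in fibroblasts. That is 7.56-fold lower in DiBA and 6.16-fold lower in BA, and it was the member with the lowest DiBA value relative to fibroblasts. The DiBA value of Itga11 lay close to the threshold of 69.2, so its DiBA fold and this rank are imprecise. Itga1, whose product with that of Itgb1 binds collagen IV of basement membranes, was the 1 member at least 2-fold higher in DiBA and BA. Its intensity was 751 in DiBA and 737 in BA, against 352 in fibroblasts, a fold of 2.13 for DiBA and 2.09 for BA. Brown adipocyte, skeletal muscle, endothelial and macrophage markers, given above, were all higher on the same arrays, and a link of Itga1 to any of them was not tested. Itga2, another collagen receptor subunit, had 63.3 in DiBA and 67.2 in BA, against 105 in fibroblasts, and Itga10 stayed under 69.2 on all 3 arrays.

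Promoter windows are shown for 5 of the genes at least 2-fold apart from fibroblasts in both samples, chosen as receptors for fibronectin, nephronectin and collagen, to place them in the genome. RefSeq windows of assembly GRCm38.p6, from 250 bases before to 50 after a transcription start, were found for 24 of the 37 genes, with 27 windows. Shown are the fibronectin receptor pair Itga5 (chr15:103366742-103367041, minus strand) and Itgb1 (chr8:128685404-128685703, plus strand). Beside them stand Itga8 (chr2:12301895-12302194, minus strand), Itga11 (chr9:62677605-62677904, plus strand) and the higher gene Itga1 (chr13:115101915-115102214, minus strand). Each sequence runs 5′ to 3′ on the gene's strand, and capitals mark the motifs found.
Itga5: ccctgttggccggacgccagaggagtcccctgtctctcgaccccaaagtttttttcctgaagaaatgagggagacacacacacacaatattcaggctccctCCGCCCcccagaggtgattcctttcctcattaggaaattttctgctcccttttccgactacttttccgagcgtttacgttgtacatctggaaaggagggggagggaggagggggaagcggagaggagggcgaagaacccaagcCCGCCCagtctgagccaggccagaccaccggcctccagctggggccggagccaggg
Itgb1: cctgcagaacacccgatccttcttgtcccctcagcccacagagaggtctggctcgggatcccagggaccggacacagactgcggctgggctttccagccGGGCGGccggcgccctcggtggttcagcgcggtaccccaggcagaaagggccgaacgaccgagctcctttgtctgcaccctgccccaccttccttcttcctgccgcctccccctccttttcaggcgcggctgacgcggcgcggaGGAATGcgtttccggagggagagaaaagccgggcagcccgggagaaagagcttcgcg
Itga8: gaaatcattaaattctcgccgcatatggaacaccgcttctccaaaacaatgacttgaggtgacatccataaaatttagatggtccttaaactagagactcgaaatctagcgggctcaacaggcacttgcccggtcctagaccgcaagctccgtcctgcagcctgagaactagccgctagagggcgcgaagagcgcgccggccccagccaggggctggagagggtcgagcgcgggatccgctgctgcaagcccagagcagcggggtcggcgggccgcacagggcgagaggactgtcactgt
Itga11: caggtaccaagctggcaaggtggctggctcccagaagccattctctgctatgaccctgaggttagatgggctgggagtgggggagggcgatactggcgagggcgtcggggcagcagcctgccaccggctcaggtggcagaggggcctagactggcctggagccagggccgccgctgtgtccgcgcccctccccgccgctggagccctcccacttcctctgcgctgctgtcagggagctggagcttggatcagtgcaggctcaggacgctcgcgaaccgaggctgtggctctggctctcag
Itga1: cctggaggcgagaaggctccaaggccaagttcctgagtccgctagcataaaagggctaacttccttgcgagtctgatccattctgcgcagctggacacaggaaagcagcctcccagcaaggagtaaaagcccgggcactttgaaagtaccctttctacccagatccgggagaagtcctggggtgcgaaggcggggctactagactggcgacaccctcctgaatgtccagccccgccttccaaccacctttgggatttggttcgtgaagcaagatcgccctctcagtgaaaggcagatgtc

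Windows were searched on both strands for the GC box motif GGGCGG, the TEAD core motif GGAATG, the E-box motif CACGTG and the TATA box motif TATAAA, and the marked matches do not overlap. The GC box was found in 13 of the 27 member windows (48.1%) and in 35.7% of 32851 windows of the same length. The Itga5 window holds it 2 times and the Itgb1 window once, while those of Itga8, Itga11 and Itga1 hold none. The window of Itgb1 also holds 1 TEAD core, a motif present in 3 member windows and in 14.7% of all windows. Of the 11 genes lower in BA, 10 had a window and 6 of these held a GC box. Of the 25 genes that were not 2-fold apart from fibroblasts in either sample, 13 had a window and 6 held one. The E-box and the TATA box were in 0 member windows, against 7.15% and 13.6% of all windows. The median GC content was 58.7% in member windows and 52.7% in all windows.

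The 3 laminin-binding alpha subunits differed less than the fibronectin receptors. Itga3 had 150.2 in DiBA and 89.5 in BA, against 188 in fibroblasts, so that it was 2.09-fold lower in BA but 1.25-fold lower in DiBA. Itga6, which joins Itgb1 or Itgb4 products, had 258 in DiBA and 285 in BA, against 362 in fibroblasts. Itga7, the laminin receptor subunit of muscle fibres, lay the other way, with 135 in DiBA and 140.3 in BA, against 88.2 in fibroblasts. The Itga7 fold of 1.53 in DiBA and 1.58 in BA did not reach the threshold, and all 10 skeletal muscle markers were higher on the same arrays. A link of Itga7 to these markers was not tested.

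Itga4 and Itga9 encode a related pair of subunits that bind VCAM1, fibronectin or tenascin C. Itga4 had 99.6 in DiBA and 92.1 in BA, against 259 in fibroblasts, which is 2.58-fold lower in DiBA and 2.79-fold lower in BA. Itga9 had 139 in DiBA and 93.3 in BA, against 196 in fibroblasts, and was 2-fold lower in BA only by a narrow margin, at -1.07 on the log2 scale. All 3 adhesion ligands just named were also lower in both samples, as given below.

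None of the 5 leukocyte alpha genes was 2-fold apart from fibroblasts in either sample, nor was Itgb2. Itgae, Itgal and Itgax stayed under 69.2 on each array. Itgam, a subunit of macrophages and neutrophils, had 66.0 in DiBA and 76.8 in BA, against 42.1 in fibroblasts. Itgb2, the beta subunit common to leukocytes, had 95.9 in both DiBA and BA, against 56.9 in fibroblasts, a fold of 1.67 in each. Of the Itgad probe sets, 1 read 195 in both DiBA and BA and 78.3 in fibroblasts, and the other read 31.4 on every array, so the gene's mean did not reach 2-fold. Macrophage markers were brighter on the same arrays, as given above. All 7 neutrophil markers and all 3 B cell markers measured lay under 69.2 on all arrays, as did at least 5 of 6 T and NK cell markers on each array.

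Of the 8 beta subunits, 2 were lower in both DiBA and BA and 0 were higher, against 7.67% of all genes lower in DiBA and 9.59% in BA. Itgb1 had 950 in DiBA and 794 in BA, against 2696 in fibroblasts, which is 2.84-fold lower in DiBA and 3.39-fold lower in BA. Itgb8, whose product joins that of Itgav in releasing active TGF-beta, had 89.8 in DiBA and 57.0 in BA, against 200.2 in fibroblasts. It is no longer called in either sample with a 75th percentile level filter. Its BA value lay under the threshold, and its BA difference of -1.79 becomes -1.52 when low values are raised to 69.2. Itgb5, the partner of Itgav in binding vitronectin, had 771 in DiBA and 747 in BA, against 1169 in fibroblasts, so it was 1.52-fold and 1.56-fold lower. The remaining beta genes were not 2-fold apart. Itgb3 had 81.7 in DiBA and 76.6 in BA, against 90.5 in fibroblasts, and Itgb4, the beta subunit of epithelial hemidesmosomes, had 87.2 in DiBA and 88.5 in BA, against 73.0 in fibroblasts. Itgb6 had the identical intensity of 44.4 on the 3 arrays, and Itgb7 stayed under 69.2 throughout. Itgbl1, which encodes a secreted protein with integrin beta repeats, had 70.7 in both DiBA and BA, against 102 in fibroblasts.

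**Figure D2:**
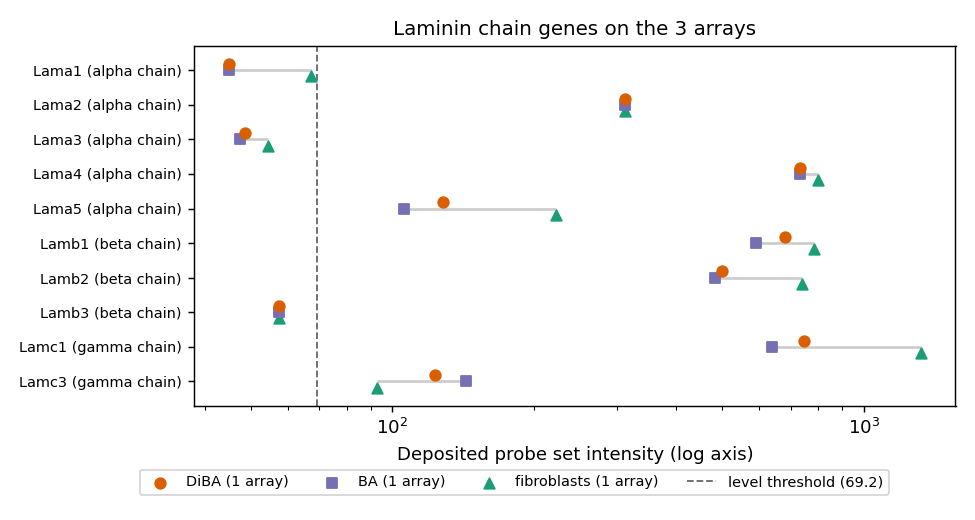
Deposited intensity (log axis) of the 10 laminin chain genes on the DiBA, BA and fibroblast arrays, with the level threshold of 69.2 as a dashed line. Symbols of Lama2, Lama4 and Lamb1 lie close together, and Lamc1 and Lama5 show fibroblasts to the right.

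None of the 10 laminin chain genes was 2-fold apart between DiBA and fibroblasts, and 2 were lower in BA than in fibroblasts. The shares over all genes were 7.67% lower and 8.54% higher in DiBA, and 9.59% lower in BA. With 10 genes, these counts do not set laminins apart from them. Among alpha chains, Lama4, the chain of basement membranes around vessels and fat cells, had 733 in both DiBA and BA, against 799.7 in fibroblasts. Lama2, the alpha chain of muscle and nerve basement membranes, carried the identical intensity of 311 on all 3 arrays. Identical values were common in the deposited table: 3 of the 37 genes and 31.4% of all genes were tied on all arrays, and 10 of the 37 and 45.0% of all genes between DiBA and BA. Lama5, a chain common in epithelial and vessel basement membranes, had 128 in DiBA and 106 in BA, against 223 in fibroblasts, which is 1.74-fold lower in DiBA and 2.10-fold lower in BA. Lama1 and Lama3, chains of embryonic and epithelial basement membranes, lay under 69.2 on every array.

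The gamma chain Lamc1 had 747 in DiBA and 640.2 in BA, against 1323 in fibroblasts. Its differences of -0.82 for DiBA and -1.05 for BA fall on either side of the 2-fold threshold, although DiBA and BA were only 1.17-fold apart. Lamc3 was the 1 chain brighter in both DiBA and BA, with 123 in DiBA and 143 in BA, against 92.8 in fibroblasts. Of the beta chains, Lamb1 had 680.4 in DiBA and 592 in BA, against 784 in fibroblasts, and Lamb2, the beta chain of mature muscle and vessel membranes, had 500.3 in DiBA and 485 in BA, against 742 in fibroblasts. Lamb3, an epithelial chain, was tied at 57.4 on the 3 arrays. The chains of the laminins built from Lama4 or Lama2 with Lamb1 or Lamb2 and Lamc1 thus all reached the threshold on each array.

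**Figure D3:**
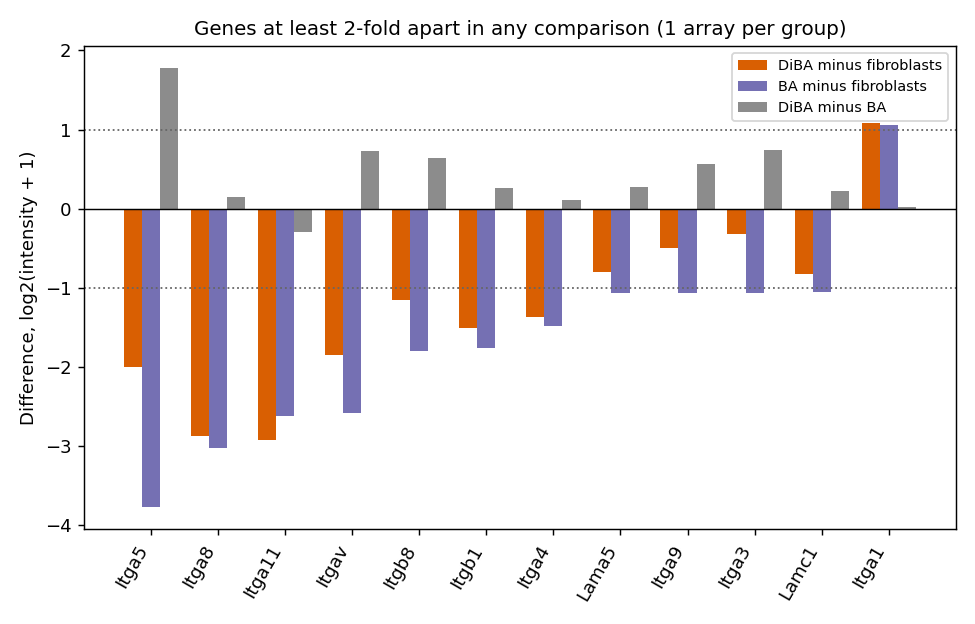
Difference in log2(intensity + 1) for the genes at least 2-fold apart in any comparison, with 1 array per group, as DiBA minus fibroblasts, BA minus fibroblasts and DiBA minus BA, and dotted lines at 2-fold. Itga1 alone points upward against fibroblasts, and Itga5 alone passes 2-fold between DiBA and BA.

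Set directly against each other, DiBA and BA were at least 2-fold apart at 1 of the 37 genes, and 0 were lower in DiBA, against 0.973% higher and 0% lower over all genes and 1.64% higher among genes at the mean level above. That gene was Itga5, with 316 in DiBA and 91.4 in BA, a fold of 3.43, or 1.78 on the log2 scale. With a pseudocount of 16 in place of 1 the Itga5 difference was 1.63, still above 2-fold. The next members were Itga3 at 0.74, Itgav at 0.73, Itgb8 at 0.65 and Itga9 at 0.57, each brighter in DiBA than in BA and short of 2-fold. The lowest was Itga11 at -0.29, and the median over the 37 genes was 0. The DiBA intensity lay strictly between those of BA and fibroblasts for 19 of the 37 genes, against 36.1% of all genes and 56.0% of genes whose mean level reached the threshold. Fibroblasts had the highest value of the 3 for 22 of the 37 genes (59.5%), against 31.6% of all genes and 45.2% of genes at that mean level. Both member counts include genes under that mean level, so the 56.0% and 45.2% cover an unlike set.

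Genes whose products work with integrins and laminins were described by 5 companion lists. Over all genes, 7.67% were lower and 8.54% higher in DiBA, and 9.59% lower and 9.51% higher in BA, the background for each list. Of 24 intracellular adaptors and kinases measured, 10 were lower and 2 higher in DiBA, and 9 were lower and 2 higher in BA, than in fibroblasts, with medians of -0.55 and -0.67. Tgfb1i1, a focal adhesion adaptor, had 144 in DiBA and 115 in BA, against 1046 in fibroblasts. Zyx, which encodes the adhesion protein zyxin, had 244 in DiBA and 216 in BA, against 1211 in fibroblasts. Vcl, the gene of vinculin, which ties adhesions to actin, had 532 in DiBA and 379 in BA, against 2043 in fibroblasts. Tns3, a tensin gene, had 152 in DiBA and 99.1 in BA, against 634 in fibroblasts. These 4 adaptors were lower in both samples, and the higher ones were Tns1, a related tensin gene, at 1.19 for DiBA and 1.37 for BA, and Lims2, a partner of the Ilk kinase, at 1.03 for DiBA and 1.48 for BA.

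Among the companion lists, matrix proteins that integrins bind held the largest share of lower genes. The lists were chosen with earlier results of these data known, so this ranking is a description only. Col1a1, Col1a2 and Col3a1 of this list were also among the fibroblast markers above. Of 9 measured, 7 were lower and 1 higher in DiBA, and 8 were lower and 1 higher in BA, than in fibroblasts, with medians of -2.11 and -2.91. Fn1, the gene of fibronectin, had 2799 in DiBA and 849.8 in BA, against 7920 in fibroblasts, and was 1.72 higher on the log2 scale in DiBA than in BA. Fn1 and Thbs1 were the ligands at least 2-fold apart between DiBA and BA, the second at 3.96, or 3.65 with low values raised to 69.2. Tnc, the gene of tenascin C, had 230.3 in DiBA and 122 in BA, against 3620 in fibroblasts. Thbs1 and Thbs2 encode thrombospondins, secreted matrix glycoproteins, and both were lower in each sample. Thbs2 had 333 in DiBA and 171 in BA, against 2408 in fibroblasts, and Thbs1 differed from fibroblasts by -3.40 in DiBA and -7.37 in BA on the log2 scale, with a BA intensity of 55.5 under the threshold. Vtn, the gene of vitronectin, was the higher ligand, with 119.9 in DiBA and 166 in BA, against 31.2 in fibroblasts. The fibroblast value lay under the threshold, and with low values raised to 69.2 the Vtn difference was 0.79 for DiBA, short of 2-fold, and 1.25 for BA.

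Of 17 other basement membrane genes, 4 were lower and 1 higher in DiBA, and 7 were lower and 1 higher in BA, than in fibroblasts. Hspg2, which encodes perlecan, had 527 in DiBA and 505 in BA, against 1690 in fibroblasts. Fras1, which encodes an epidermal basement membrane protein, had 50.4 in both DiBA and BA, against 180 in fibroblasts. Both of these values lay under 69.2, and the Fras1 difference of -1.82 becomes -1.37 with low values raised to 69.2. Nid2 had 273 in DiBA and 152 in BA, against 553 in fibroblasts. These 3 genes were lower in both samples, as was Nid1. Nid1, which like Nid2 encodes a nidogen that links laminin to collagen IV, had 902 in DiBA and 887 in BA, against 2376 in fibroblasts. Col15a1, a collagen gene of the basement membrane zone, was the higher member, with 216 in DiBA and 229.9 in BA, against 107 in fibroblasts. Laminin receptors other than integrins had 0 of 10 lower and 1 higher in each sample. Both counts lie near the shares over all genes, which were 7.67% lower and 8.54% higher in DiBA, and 9.59% and 9.51% in BA. The higher gene was Sspn, a member of the dystrophin complex, with 518 in DiBA and 548 in BA, against 146 in fibroblasts.

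Of 10 receptors on neighbouring cells that integrins or their kin bind, 3 were higher and 2 lower in DiBA, and 3 were higher and 3 lower in BA, than in fibroblasts. All-gene shares were 8.54% higher and 7.67% lower in DiBA, and 9.51% and 9.59% in BA, so the excess is a few genes. F11r, a junction protein gene, had 559 in DiBA and 595 in BA, against 146 in fibroblasts. Icam2, an endothelial ligand of leukocyte integrins, had 86.7 in DiBA and 107 in BA, against 35.2 in fibroblasts, alongside the endothelial markers given above. With low values raised to 69.2, its differences of 0.32 for DiBA and 0.62 for BA fall short of 2-fold. Vcam1, the ligand of the Itga4 receptor, had 262 in DiBA and 198 in BA, against 548 in fibroblasts.

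**Figure D4:**
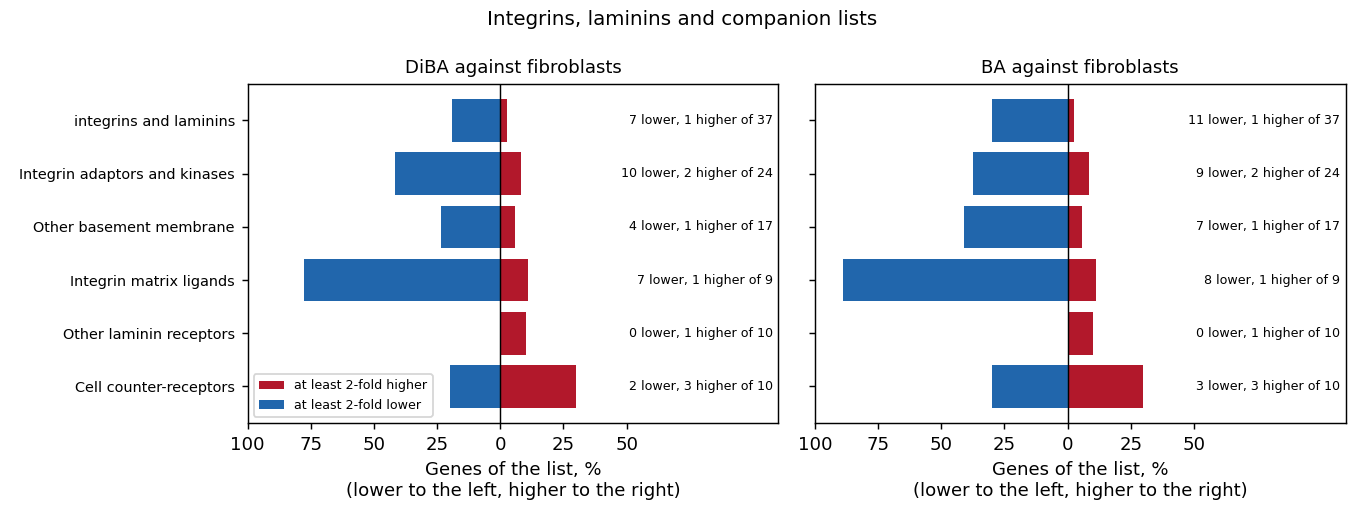
Share of each list's measured genes, in %, that were at least 2-fold lower (bars to the left) or higher (bars to the right) in DiBA and in BA than in fibroblasts, with the counts printed beside the bars. Integrin matrix ligands, a list that shares Col1a1, Col1a2 and Col3a1 with the fibroblast markers, have the longest bars to the left in both panels. The other laminin receptors have none to the left, where all genes had 7.67% lower in DiBA and 9.59% in BA.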

How the data were processed

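Per the labels' protocols, total RNA was extracted with ISOGEN II and labelled with biotin by terminal labelling of whole-transcript targets. The authors deposited 1 linear intensity per probe set and array. The submitters' processing notes name Affymetrix Expression Console, and its version, summarization, background correction and normalization were not given in the sources used here. Array medians, given above, lay close together, so values were taken as already normalized. Depth does not apply, and the number of arrays limits the precision.

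Of 28943 probe sets, 21789 had 1 gene symbol in the platform table, 1621 had several and 5533 had no listed gene. All 37 member symbols matched RefSeq (GRCm38.p6) by gene ID. Probe sets of a gene were averaged as log2(intensity + 1), with a pseudocount of 1, so a fold understates differences of dim genes. Genes were called at 2-fold where the brighter array reached 69.2. The genes described are all members called in any comparison and all reaching that level on 3 arrays, and for companion lists the called members with the largest differences. Members dimmer than that are named for completeness, and Tns1, Lims2, Vtn, Col15a1 and Dcn were named as the few higher genes of their lists after their values were seen. Rgs5, Kcnj8, Pmp22, Mbp and Krt8 were also named after their values were seen. The members and lists were chosen with earlier results of these data known. Calling was tested on simulated data. Python 3.11.15, numpy 2.4.6 and pandas 2.3.3 were used.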

Additional observations from a re-analysis of the deposited data

How the results depend on the processing

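Array centring and quantile normalization left the numbers of integrin and laminin genes called in each comparison as reported. With a 4-fold threshold, 2 genes were lower and 0 higher in DiBA than in fibroblasts, 4 were lower and 0 higher in BA than in fibroblasts, and 0 were higher in DiBA than in BA. With the brightest probe set of a gene, 2 genes, Itga1 and Itgad, were higher in DiBA and 2 in BA than in fibroblasts. A 75th percentile level filter left 7 lower genes in BA and 6 in DiBA, both without Itgb8, since fewer genes could pass. With intensities under the median raised to it, the BA median was -0.13, since dim differences are removed. Under a pseudocount of 16, which shrinks differences of dim genes, Itga3, Itga9 and Lama5 lay at -0.95, -0.96 and -0.97 in BA. All of these fall short of 2-fold. With the same pseudocount, Itga11 lay at -2.69 in DiBA and -2.44 in BA against fibroblasts. Itga5 then lay at -3.57 in BA against fibroblasts and at 1.63 in DiBA against BA. Of 105 gene differences under the alternative settings, 14 moved by at least 0.1 on the log2 scale. The 21 gene differences kept their direction in all settings. No paired analysis was possible because each group holds 1 array, and no replicate could be left out.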

Other observations

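Of the probe sets with several gene symbols, 3 list Itgam together with the ribosomal protein gene Rpl35, and they were left out of Itgam. They read from 2402 to 2664 in DiBA, from 2340 to 2614 in BA and from 3075 to 3438 in fibroblasts, whereas the probe set of Itgam alone stayed at or under 76.8 on all arrays.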
